A study of Mus musculus with 10 samples.

Results

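Iron handling and ferroptosis regulators are described here by 10 mouse genes chosen by name for their roles: Tfrc, Slc11a2, Fth1, Ftl1, Ncoa4, Slc40a1, Hamp, Acsl4, Lpcat3 and Aifm2. They are 10 of the 27876 gene symbols in the authors' deposited table, which holds 54 of their transcripts, and each gene stands as its most abundant transcript. RNA came from the whole kidney of wild-type mice killed on day 14, 5 of them given vehicle and 5 given quinolinic acid, a product of tryptophan breakdown, at 0.5 g/L in their drinking water. The question is which transcripts in the kidney differ with the treatment, with each mouse labelled as a separate sample. Strain, age and sex are not stated in the labels, nor whether kidney injury was induced, and all 10 libraries carry 1 batch label.

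The values are a finished comparison from edgeR's likelihood-ratio test, so neither the value of any mouse nor the depth of any library can be given. Each level is a mean over all 10 libraries in CPM, read counts scaled to library size. Each 95% interval is approximate and was worked out from the authors' test statistic. The numerator of the fold change is not stated, so a sign is given as deposited and is not read as more or less RNA after quinolinic acid. In whole kidney, fewer cells of a type and less RNA per cell cannot be told apart.

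Cells take up iron bound to transferrin through the transferrin receptor, move it out of endosomes through DMT1, store it in ferritin, and export it through ferroportin. Hepcidin, a hormone made mainly by the liver, makes cells degrade ferroportin. Iron regulatory proteins bind hairpins called iron-responsive elements when iron is scarce, which blocks translation of mRNAs with the element in the 5′ untranslated region and protects the transferrin receptor mRNA, which has it in the 3′ untranslated region. Ferroptosis is death by iron-dependent peroxidation of membrane lipids, and the proximal tubule of the kidney is known for its sensitivity to it.

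These elements are shown because their place bears on what RNA levels can measure: control through a 5′ element acts on translation, and control of the Tfrc mRNA through its 3′ elements acts on RNA stability. The search asked for the letters CNNNNNCAGTGN on the transcript strand, with the 5 bases before CAGTGN pairing with the 5 after it (G with T allowed). It was run on GENCODE vM21 transcripts (GRCm38, the assembly of mm10). The hexaloop CAGTGN is in capitals and each line runs 5′ to 3′ over 30 bases, written as DNA.
Fth1, 5′ untranslated region, exon 1, chr19:9982732-9982761, plus strand: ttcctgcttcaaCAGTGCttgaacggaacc
Ftl1, 5′ untranslated region, exon 1, chr7:45459778-45459807, minus strand: gtcttgcttcaaCAGTGTttgaacggaaca
Slc40a1, 5′ untranslated region, exon 1, chr1:45925464-45925493, minus strand: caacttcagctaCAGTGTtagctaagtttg
Slc11a2, 3′ untranslated region, exon 16, chr15:100395152-100395181, minus strand: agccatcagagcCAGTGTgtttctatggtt
Tfrc, 3′ untranslated region, exon 19, chr16:32631219-32631248, plus strand: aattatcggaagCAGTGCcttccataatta
Tfrc, 3′ untranslated region, exon 19, chr16:32631598-32631627, plus strand: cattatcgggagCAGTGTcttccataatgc
Tfrc, 3′ untranslated region, exon 19, chr16:32631663-32631692, plus strand: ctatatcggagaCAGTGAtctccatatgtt
Tfrc, 3′ untranslated region, exon 19, chr16:32631710-32631739, plus strand: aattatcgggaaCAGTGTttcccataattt

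Fth1, Ftl1, Slc40a1 and Tfrc matched with all 5 pairs, and Slc11a2 with 4 of 5. Among 5′ untranslated regions within 25% of the same length, the full motif stood in 0.101% for the length of Fth1, 0.103% for Ftl1 and 0.204% for Slc40a1. Among 3′ untranslated regions as long as that of Tfrc it stood in 1.31%. Tfrc was the 1 gene of 18217 with at least 4 of them in the 3′ untranslated region. The looser match with 4 pairs was common, at 7.49% of 3′ untranslated regions as long as that of Slc11a2. In Slc11a2 it lay in the transcript Slc11a2-205 and not in Slc11a2-201, which has another 3′ end. The other 5 members held no match in any of their transcripts in the table.

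No member passed the test. At a deposited adjusted p under 0.05, 0 of the 54 transcripts were called in the authors' deposited table, against 0.0141% of all 85107 transcripts. Of the 54, the authors' deposited table gave 0.794 as the smallest adjusted p. At an unadjusted p under 0.05 edgeR's likelihood-ratio test gave 3 of the 54 transcripts (5.56%), 2 of Aifm2 and 1 of Hamp, against 6.08% of all transcripts. By gene, 0 of 10 were called at the adjusted threshold (0.0215% of all genes) and 2 of 10 at the unadjusted one (5.12% of all genes). The sign was positive for all 10 genes as deposited, and negative for 4 of them once the median of genes of at least 1 CPM was subtracted. Their median was 0.09 on the log2 scale as deposited. Among the 13115 genes of at least 1 CPM, 71.8% had a positive sign and the median was 0.08.

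**Figure D1:**
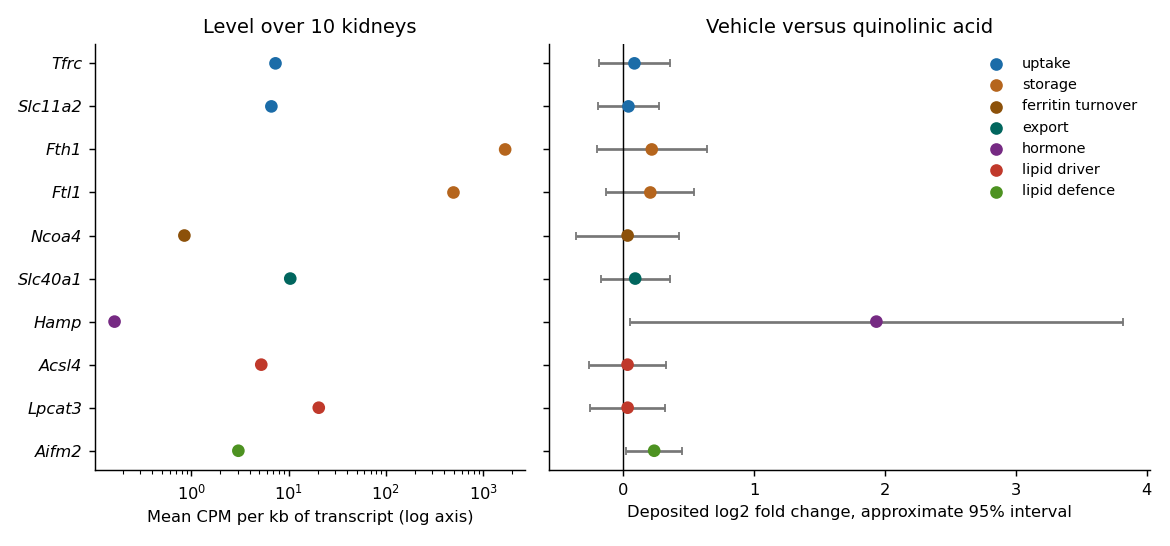
Left, mean level of each gene's most abundant transcript in CPM per kilobase on a log axis; right, its deposited log2 fold change between vehicle and quinolinic acid (sign as deposited) with the approximate 95% interval, coloured by role. The 2 ferritin genes stand far above the rest in level, and the intervals of Aifm2 and Hamp alone exclude 0.

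The members differed widely in level. Per kilobase of transcript, Fth1, the ferritin heavy chain that oxidises iron for storage, stood at 1681 CPM, the 11th highest of all genes, from the authors' deposited table. Ftl1, the ferritin light chain that helps to form the iron core, followed at 495 CPM per kilobase. After the ferritins came Lpcat3 at 20.5, Slc40a1 at 10.4, Tfrc at 7.35, Slc11a2 at 6.67, Acsl4 at 5.25 and Aifm2 at 3.05 CPM per kilobase, from the authors' deposited table. Ncoa4 (0.852) and Hamp (0.163) were lowest. Without values per mouse it cannot be said which neighbours in this order differ beyond their spread.

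The genes of iron uptake had values close to 0. Tfrc (ENSMUSG00000022797, chromosome 16, 32608920 to 32632794), the transferrin receptor, averaged 35.9 CPM in the authors' deposited table, where its log2 fold change was 0.08 (95% interval -0.19 to 0.36). The interval runs from 0.878-fold to 1.28-fold. Slc11a2 (ENSMUSG00000023030, chromosome 15, 100392563 to 100423002), which encodes the metal transporter DMT1, averaged 29.4 CPM in the authors' deposited table, where its log2 fold change was 0.04 (95% interval -0.19 to 0.27). Slc11a2-205, with the iron-responsive element letters, and Slc11a2-201, without them, lay together at log2 fold changes of 0.04 and 0.04 in the authors' deposited table. Their levels there were 29.4 and 15.8 CPM, and 1708 nt of Slc11a2-201 lie in exons of Slc11a2-205, so these are not separate measurements.

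The ferritin pair had nearly equal values. Fth1 (ENSMUSG00000024661, chromosome 19, 9982646 to 9985098) averaged 1562 CPM in the authors' deposited table, where its log2 fold change was 0.22 (95% interval -0.20 to 0.64). Ftl1 (ENSMUSG00000050708, chromosome 7, 45457944 to 45459884) averaged 479 CPM in the authors' deposited table, where its log2 fold change was 0.21 (95% interval -0.13 to 0.54). Both are short mRNAs, of 929 and 968 nt, and the median log2 fold change of the 860 genes with transcripts under 1000 nt was 0.18. With the trend of fold change on length and level removed, Fth1 stood at 0.06 (-0.36 to 0.48) and Ftl1 at 0.03 (-0.30 to 0.37). Ferritin genes have processed copies, which can share reads. The 3 copies looked up by name had low levels in the authors' deposited table, with Fth-ps2 at 0.0456, Ftl2-ps at 0.0290 and Ftl1-ps2 at 0.0241 CPM. Copies under other names were not searched for. How reads that match several places were counted is not given, so these levels do not show how many reads are shared.

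Ncoa4 (ENSMUSG00000056234, chromosome 14, 32165589 to 32179855), the receptor that delivers ferritin to lysosomes for breakdown, averaged 3.43 CPM in the authors' deposited table, where its log2 fold change was 0.03 (95% interval -0.36 to 0.43). Its most abundant transcript is annotated as a target of nonsense-mediated decay. The coding transcript Ncoa4-202 had the same rounded log2 fold change, 0.03, at 3.42 CPM in the authors' deposited table. Slc40a1 (ENSMUSG00000025993, chromosome 1, 45908068 to 45925582), which encodes the iron exporter ferroportin, averaged 35.1 CPM in the authors' deposited table, where its log2 fold change was 0.09 (95% interval -0.17 to 0.36). Macrophages also use ferroportin to return iron. Of 12 macrophage markers, 9 were positive in sign, against 57.9% of all genes and 71.8% of genes of at least 1 CPM. The markers' summed level was 434.5 CPM and their median 0.05 on the log2 scale in the authors' deposited table. Their part in the Slc40a1 value was not tested.

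Hamp (ENSMUSG00000050440, chromosome 7, 30942368 to 30944032), which encodes hepcidin, had the largest difference and the lowest level. It averaged 0.0669 CPM in the authors' deposited table, where its log2 fold change was 1.93 (95% interval 0.05 to 3.82, p = 0.0441, adjusted p = 0.794). Among the 10638 genes under 0.1 CPM, 5.07% had an unadjusted p under 0.05 and 15.1% a log2 fold change beyond 1.5 in either direction. Hamp2, its neighbour on chromosome 7, is 92.4% identical over the aligned transcript, so reads can be shared between them. Hamp2 averaged 0.0269 CPM in the authors' deposited table, where its log2 fold change was 2.78 (95% interval -0.28 to 5.84).

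Marker genes of hepatocytes, the main source of hepcidin, also had a positive sign. All 12 did so, with 6 at an unadjusted p under 0.05 and none called by edgeR's likelihood-ratio test, and a median log2 fold change of 0.52. Over all genes, 57.9% had a positive sign and 5.12% an unadjusted p under 0.05, and 71.8% of genes of at least 1 CPM were positive. The median was 0.37 over the 9 hepatocyte markers of at least 1 CPM, and 0.28 with the length and level trend removed. Their summed level was 722.8 CPM, of which Cyp2e1, also a gene of the proximal tubule, gave 573.2 CPM in the authors' deposited table. Ahsg, the fetuin gene, had the lowest level of the list, 0.335 CPM, with a log2 fold change of 1.98 (95% interval 0.60 to 3.37) in the authors' deposited table. No marker was at 0, and the part of such cells in the Hamp value was not tested. Of 9 erythroid markers measured, 8 were positive, at a summed level of 81.7 CPM and Hbb-bs at 0.17 (-0.43 to 0.76). Of 8 adipocyte markers 7 were positive and 6 had an unadjusted p under 0.05, with none called by edgeR's likelihood-ratio test, at a summed level of 30.8 CPM. Their median was 2.66 over all 8 and 0.19 over the 3 of at least 1 CPM. All 9 proximal tubule, 9 distal nephron and 5 podocyte markers stood at 1 CPM or more, with summed levels of 4521, 2178 and 116.3 CPM, among them Slc34a1 of the proximal tubule at 1430 CPM and Umod of the thick ascending limb at 1274 CPM in the authors' deposited table. Most of these kidney markers were positive too: 8 of 9, 7 of 9 and 5 of 5, with median log2 fold changes of 0.13, 0.13 and 0.10.

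**Figure D2:**
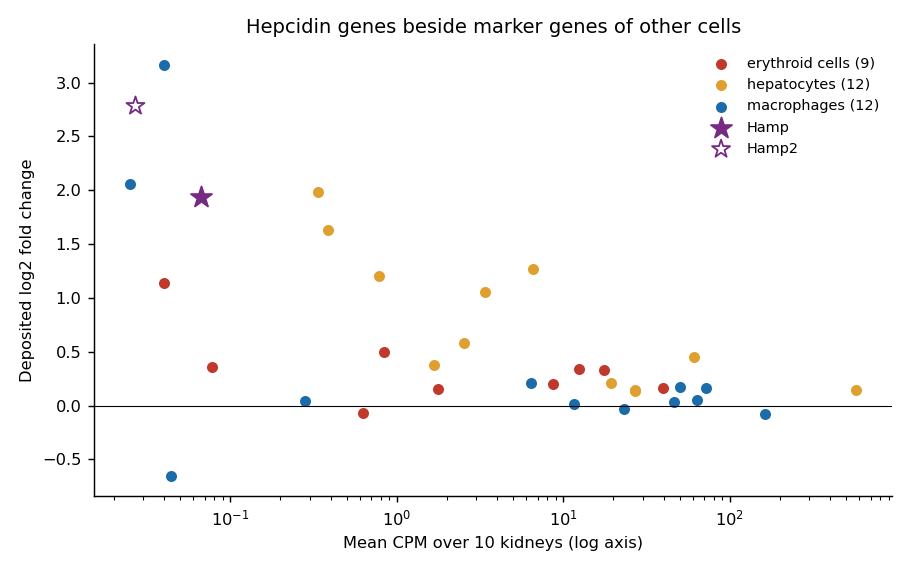
Deposited log2 fold change against mean CPM over the 10 kidneys (log axis) for Hamp, Hamp2 and the marker genes of hepatocytes (12), erythroid cells (9) and macrophages (12), 1 point a gene. Hamp and Hamp2 lie under 0.1 CPM, and all hepatocyte markers lie above 0.

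The genes that load membranes with oxidisable lipids were close to 0. Acsl4 (ENSMUSG00000031278, chromosome X, 142317993 to 142390535), which activates arachidonic acid for membrane lipids, averaged 27.7 CPM in the authors' deposited table, where its log2 fold change was 0.03 (95% interval -0.26 to 0.32). Its interval runs from 0.835-fold to 1.25-fold. Lpcat3 (ENSMUSG00000004270, chromosome 6, 124663027 to 124704418), which inserts such fatty acids into phospholipids, averaged 46.6 CPM in the authors' deposited table, where its log2 fold change was 0.03 (95% interval -0.26 to 0.32). It shares 334 exonic bases with Emg1 on the opposite strand, and the strand setting of the counting is not given, so the reads of both cannot be told apart there. Ftl1 overlaps the annotated Gm10252 in the same way over 355 bases and Gm22133 on its own strand over 109 bases, and Slc11a2 overlaps Gm5475 on the opposite strand over 41 bases.

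Aifm2 (ENSMUSG00000020085, chromosome 10, 61715323 to 61738647) encodes FSP1, which regenerates reduced coenzyme Q at membranes and so halts lipid peroxidation. It had the smallest p of the 10 genes. It averaged 9.42 CPM in the authors' deposited table, where its log2 fold change was 0.24 (95% interval 0.02 to 0.45, p = 0.0298, adjusted p = 0.794), or 1.18-fold. The coding transcripts Aifm2-204 and Aifm2-202 stood at 0.27 and 0.25, and Aifm2-201 at 0.15, in the authors' deposited table. These share exons with the most abundant transcript and are not independent. With the length and level trend removed, Aifm2 stood at 0.16 (-0.06 to 0.37), an interval that includes 0, with an unadjusted p of 0.147 from the approximate error.

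**Figure D3:**
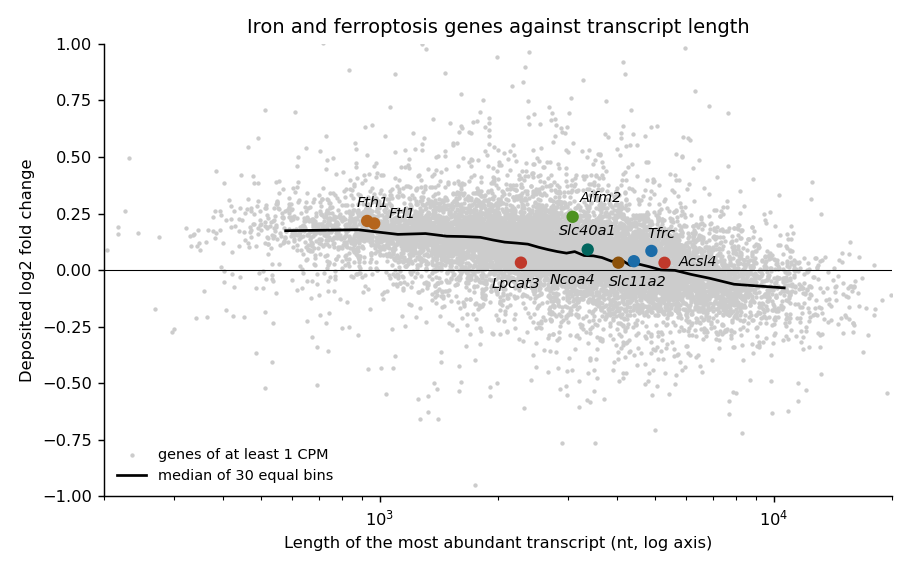
Deposited log2 fold change against the length of each gene's most abundant transcript (nt, log axis); grey points are genes of at least 1 CPM, the line is their median in 30 equal bins, and coloured points are the 9 members of at least 1 CPM. Fth1 and Ftl1 lie close to the line near 1000 nt, Aifm2 lies above it and Lpcat3 below it; 28 genes beyond 1 on the log2 scale are outside the axis.

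Within a gene, the value varied with the place of the transcript along it. Of the 44 further transcripts of the members, 43 could be placed along the most abundant transcript of their gene. Among those of at most 50% of its length and at least 0.1 CPM, 28 lay in the first of 3 equal stretches from the 5′ end. These 28 came from only 6 genes, so they are not 28 separate observations. Of them, 26 (92.9%) had a lower log2 fold change than the most abundant transcript, with a median difference of -0.19. In the other genes of at least 1 CPM the same held for 88.7% of 16554 such transcripts from 5947 genes, with a median difference of -0.20. In the stretch nearest the 3′ end, the 2689 such transcripts of other genes lay above the most abundant one by a median of 0.07. The members had 4 short transcripts in the middle stretch, 2 of them negative, and 1 in the 3′ stretch, too few to compare there.

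In Slc11a2 and Tfrc the transcripts nearest the 5′ end were lowest. The 4 short Slc11a2 transcripts nearest the 5′ end, Slc11a2-208, Slc11a2-207, Slc11a2-204 and Slc11a2-202, had log2 fold changes of -0.40, -0.32, -0.29 and -0.28 in the authors' deposited table. Slc11a2-206 and Slc11a2-203, further along, stood at 0.01 and 0.01 in the authors' deposited table. In Tfrc, the 5′ transcripts Tfrc-203, Tfrc-205, Tfrc-202 and Tfrc-206 stood at -0.35, -0.32, -0.25 and -0.22 in the authors' deposited table. Tfrc-204, which holds the same 4 iron-responsive element matches as Tfrc-201, stood at 0.14 (95% interval -0.14 to 0.43) there. None of these transcripts passed edgeR's likelihood-ratio test at an unadjusted p under 0.05.

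In Ncoa4 and Lpcat3 the lowest values were also in the 5′ stretch. Ncoa4-205 at the 5′ end stood at -0.36 in the authors' deposited table, where the 3 near-complete Ncoa4 transcripts lay at 0.03. Lpcat3-204 stood at -0.21 near the 5′ end and Lpcat3-208 towards the 3′ end at 0.14 in the authors' deposited table. In Slc40a1 the 7 further transcripts lay between -0.06 and -0.01, below the 0.09 of the most abundant one. In Aifm2, Aifm2-206 nearest the 5′ end stood at 0.10 in the authors' deposited table, and Aifm2-207, further along, was lower at 0.03. All 5 placed Aifm2 transcripts were positive and lay in the 5′ stretch. Aifm2-205, which could not be placed, averaged 0.0543 CPM in the authors' deposited table and stood at -0.59 (-1.68 to 0.50). Short transcripts share reads with the most abundant one, so these values are not independent.

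**Figure D4:**
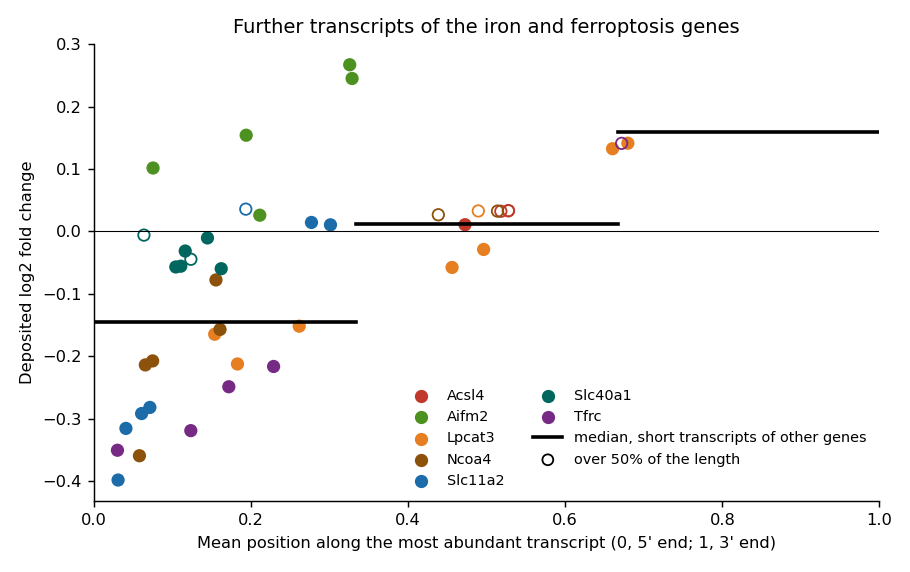
Deposited log2 fold change of 43 further transcripts of the members against their mean position along the gene's most abundant transcript (0 is the 5′ end, 1 the 3′ end). Open points are transcripts over 50% of its length. Black bars give the median in each of 3 stretches for short transcripts of at least 0.1 CPM in the other genes of at least 1 CPM. Of the 28 short member transcripts in the 5′ stretch, from 6 genes, 21 are negative. The bars of the other genes stand at -0.15, 0.01 and 0.16 from the 5′ to the 3′ end.

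The other genes of iron handling and ferroptosis gave 0 called of 93 measured, in 7 lists. At an unadjusted p under 0.05 there were 6 (6.45%), all positive, against 5.12% of all genes in either direction and 3.58% with a positive sign. Of the 93, 77 (82.8%) had a positive sign, against 57.9% of all genes and 71.8% of genes of at least 1 CPM. The median log2 fold change of the 80 listed genes of at least 1 CPM was 0.12, and 0.03 with the length and level trend removed.

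In iron uptake, 2 of 12 genes had an unadjusted p under 0.05. Trf, the transferrin gene, averaged 20.8 CPM in the authors' deposited table, where its log2 fold change was 0.54 (95% interval 0.18 to 0.90, p = 0.00340, adjusted p = 0.587). Transferrin is made mainly in liver, and the hepatocyte markers given above had a positive sign too; their part in the Trf value was not tested. Slc22a17, a receptor for lipocalin-2, stood at 0.27 (0.05 to 0.50) in the authors' deposited table. The lipocalin-2 gene Lcn2 averaged 69.5 CPM there and stood at -0.50 (-1.10 to 0.11). Of the 12 uptake genes, 8 were positive and 4 negative. The endocytic receptors Lrp2 and Cubn, which retrieve filtered iron-binding proteins in the proximal tubule, stood at -0.08 (-0.57 to 0.41) and 0.02 (-0.40 to 0.44) in the authors' deposited table.

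Among 12 genes of export and the hepcidin axis, Cp, which encodes the ferroxidase ceruloplasmin, averaged 106.2 CPM in the authors' deposited table, where its log2 fold change was -0.36 (95% interval -0.77 to 0.05). The haemochromatosis gene Hfe stood at 0.21 (-0.01 to 0.42) and the BMP receptor gene Bmpr1a at -0.01 (-0.25 to 0.23) in the authors' deposited table. The hepcidin regulators Hfe2 and Tmprss6 had an unadjusted p under 0.05 in the authors' deposited table, and were named after their values were seen. Hfe2 stood at 2.71 (95% interval 0.66 to 4.76) at 0.0441 CPM, and Tmprss6 at 1.32 (0.20 to 2.44) at 0.260 CPM. Also scarce, Erfe stood at 1.22 (-0.52 to 2.95) at 0.115 CPM and Hephl1 at 1.39 (-0.99 to 3.77) at 0.0211 CPM. Of genes under 0.1 CPM, 15.1% lay beyond 1.5 in either direction. Hfe2 and Tmprss6 are known from the liver, and the part of liver cells in their values was not tested. None of the 7 genes listed with iron regulatory proteins and iron chaperones reached an unadjusted p under 0.05. Pcbp2, an iron chaperone, stood at 0.15, Pcbp1 at 0.18 and the ubiquitin ligase subunit Skp1a at 0.18 in the authors' deposited table. The iron regulatory protein genes Aco1 and Ireb2 stood at 0.10 (-0.24 to 0.43) and -0.08 (-0.31 to 0.14) there.

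Of 14 genes of haem synthesis and breakdown, all of at least 1 CPM, 13 were positive, against 71.8% of all genes of that level. Their median was 0.14, and 0.00 with the trend removed. Alad, an early enzyme of haem synthesis, stood at 0.29 (95% interval 0.01 to 0.56, p = 0.0415) in the authors' deposited table, and the biliverdin reductase gene Blvrb at 0.25 (-0.02 to 0.52). The first enzyme's gene Alas1 and the haem transporter gene Slc48a1 stood at 0.14 and 0.19 in the authors' deposited table. Hmox1, the inducible haem oxygenase that frees iron from haem, averaged 17.2 CPM in the authors' deposited table and stood at -0.06 (-0.36 to 0.24). All 12 mitochondrial iron genes measured were of at least 1 CPM and positive, where 71.8% of all genes of that level were positive. Their median was 0.11, or 0.02 with the trend removed. They included Glrx5, of iron-sulfur cluster transfer, at 0.28, the iron carrier Slc25a28 at 0.21 and the chaperone gene Hspa9 at 0.04 in the authors' deposited table.

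**Figure D5:**
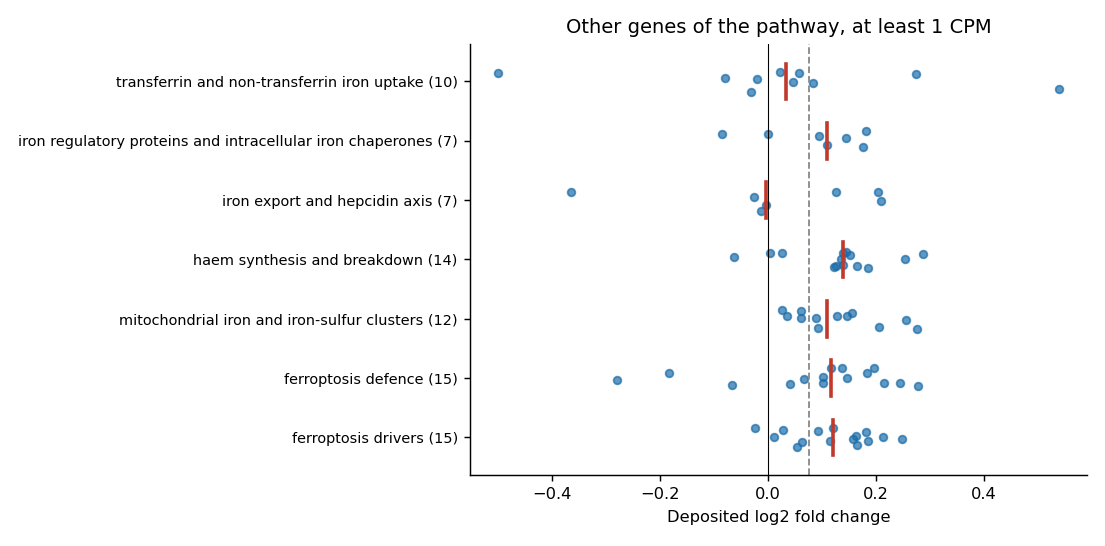
Deposited log2 fold change of 80 genes of at least 1 CPM in 7 lists of iron handling and ferroptosis, 1 point a gene, with the number of genes in brackets, the list median as a red bar and the median of all genes of at least 1 CPM as a dashed line. List medians lie from -0.00 to 0.14, around the 0.08 of all genes.

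Ferroptosis defence gave 13 positive signs of 16 genes, 15 of them of at least 1 CPM. Among all genes of that level, 71.8% were positive. Gpx4, the glutathione peroxidase that reduces lipid peroxides, averaged 105.2 CPM in the authors' deposited table, where its log2 fold change was 0.07 (95% interval -0.30 to 0.43). Slc7a11, the cystine importer that feeds glutathione synthesis, was scarce at 0.694 CPM and stood at 0.09 (-0.81 to 0.99), an interval too wide to place it. Its partner chain Slc3a2, shared with other amino acid transporters, stood at 0.28 (0.03 to 0.53, p = 0.0305, adjusted p = 0.794 by the authors' deposited table). The glutathione synthesis genes Gss and Gclm stood at 0.10 and 0.04, and the transcription factor gene Nfe2l2 at 0.20, in the authors' deposited table. Gclc, also of glutathione synthesis, averaged 127.5 CPM there and stood at -0.28 (-0.67 to 0.11). In the list of 20 ferroptosis drivers and related genes, 17 had a positive sign, and none an unadjusted p under 0.05. Positive signs made up 57.9% of all genes and 71.8% of genes of at least 1 CPM, a level that 15 of the 20 reached. The median of those 15 was 0.12, and 0.03 with the trend removed. Vdac2, a mitochondrial channel, stood at 0.25 (-0.00 to 0.50), Hmgb1 at 0.16 and the polyamine enzyme gene Sat1 at 0.16 in the authors' deposited table.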

How the data were processed

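RNA of 10 mouse kidneys was compared, grouped by the treatment in the sample titles. The submitters' processing notes name mm10 as the build, with STAR 2.5.3a, Subread 1.4.6, featureCounts, edgeR and FastQC 0.11.2 in no stated order. Annotation release, filters, strand setting and depths are not given in the sources used here. The authors' log2 fold change and log2 mean CPM, their likelihood-ratio score, and their p-value and adjusted p-value over 85107 transcripts were used as deposited. The comparison, 5 vehicle against 5 quinolinic acid kidneys, and its test are the authors' own, and whether same-numbered mice pair could not be checked.

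Of the transcripts, 83446 (98.0%) matched GENCODE vM21 by identifier without version. CPM was 2 to the power of the deposited level. An approximate standard error was the size of the log2 change over the root of the authors' likelihood-ratio statistic. Trends were removed by loess (span 0.5, R 4.3.3) on log2 length and level over genes of at least 1 CPM, and tested on simulated data. Python 3.11.15 with pandas 2.3.3, scipy 1.17.1, Biopython 1.88 and matplotlib 3.10.9 did the rest. 1 list symbol was matched through a RefSeq synonym (Hjv, as Hfe2).

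The members, lists and tests were chosen with earlier results of these data known. Of each list, genes were named by smallest p and highest level at 1 CPM or more (markers by highest and lowest level), with Hamp2, Gpx4, Slc7a11 and Hmox1 in any case, and not every gene so chosen is reported here. Outside this rule, Hfe2, Tmprss6, Erfe, Hephl1, Alb, Gclc, Lcn2, Aco1 and Ireb2 were named after their values were seen.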

Additional observations from a re-analysis of the deposited data

How the results depend on the processing

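No member transcript, member gene or pathway gene was called at adjusted p thresholds of 0.05 or 0.1, with adjustment over 1 transcript per gene or over transcripts of at least 1 CPM, or with the length and level trend removed. With 0.05 applied to the unadjusted p, there were 3 member transcripts, 2 member genes and 6 pathway genes. Signs of members near 0 turned with the choice of value. As the median over all transcripts of a gene, the log2 fold change was -0.23 for Tfrc, -0.14 for Slc11a2, -0.12 for Ncoa4, -0.0379 for Slc40a1 and -0.0288 for Lpcat3. With the median of genes of at least 1 CPM subtracted it was -0.0375 for Slc11a2, -0.0441 for Ncoa4, -0.0446 for Acsl4 and -0.0439 for Lpcat3, which follows from the subtraction of 0.08. With the trend removed it was -0.0101 for Ncoa4 and -0.0824 for Lpcat3, and by the longest transcript -0.0445 for Slc40a1; the cause was not tested. No paired analysis was possible because the deposited table is a finished comparison with no values per library. For the same reason leaving out each replicate and another count test or normalization were not run. The depth is unknown, and the intervals limit precision for the scarce Hamp most.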
